A study of Mus musculus with 4 samples.

Results

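The 30 genes described here act in the pyruvate dehydrogenase complex, its regulation, mitochondrial pyruvate import, the tricarboxylic acid (TCA) cycle and the steps that feed malate, oxaloacetate and aspartate into or out of it. They were listed by name, for their place in these pathways, out of 21631 protein-coding genes on chromosomes 1 to 19 and X of GRCm38 (mm10). All 30 were matched by symbol. Peaks were looked up within 1 kb of either end of a gene, inside the gene, and in the 50 kb around it. A gene is said to be called at an end in a library when that library's list holds a peak within 1 kb of the end.

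The chromatin came from liver of FVB mice, all female, 11 weeks old and fed standard chow. The wild type (WT) and the group labelled PA had 2 libraries each, and the labels give the PA mice as hypomorphic Pcca-/- (A138T). Pcca encodes the alpha subunit of propionyl-CoA carboxylase, and its loss causes propionic acidemia. In such a mouse a form of the enzyme with low activity is present, so the model is one of reduced and not of absent carboxylation. The series calls the replicates biological. The assay was ATAC-seq from frozen liver, in which the Tn5 transposase inserts adaptors into open DNA.

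Pyruvate enters mitochondria through a carrier made of MPC1 and MPC2 and is turned into acetyl-CoA by the pyruvate dehydrogenase complex, which kinases (PDK) switch off and phosphatases (PDP) switch on. Citrate synthase joins acetyl-CoA to oxaloacetate, and the cycle then passes through isocitrate, 2-oxoglutarate, succinyl-CoA, fumarate and malate. Carbon from propionate enters at succinyl-CoA, by way of propionyl-CoA carboxylase and methylmalonyl-CoA mutase. The liver runs these steps both to burn fuel and to supply glucose synthesis.

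The promoters of the 4 pyruvate dehydrogenase complex genes of the group are shown first, chosen for their place in the complex. Each was called in all 4 libraries, and their peaks lay differently around the start. Each window runs from 250 bases before to 50 after a transcription start, 5′ to 3′, taken from RefSeq (GRCm38.p6). Capitals mark exact matches, on either strand, to the letters searched for: GCGCNTGCG (NRF1), CCGGAAG (ETS/GABPA), AAGATGGCG (YY1), GGGCGG (the GC box), TCAAGGTCA (ERR), TGACGTCA (CREB), CACGTG (the E-box) and CCAAT (the CCAAT box). Such a match is a description of letters and does not show that a factor binds. The windows are chrX:160138381-160138680, chr14:8172943-8173242, chr9:50659731-50660030 and chr2:103073464-103073763, all on the minus strand.
Pdha1: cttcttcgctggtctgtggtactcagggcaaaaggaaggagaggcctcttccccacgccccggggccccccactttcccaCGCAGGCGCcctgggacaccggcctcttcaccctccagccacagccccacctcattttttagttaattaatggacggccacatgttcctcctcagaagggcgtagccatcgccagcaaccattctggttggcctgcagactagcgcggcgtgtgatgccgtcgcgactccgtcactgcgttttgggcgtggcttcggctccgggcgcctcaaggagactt
Pdhb: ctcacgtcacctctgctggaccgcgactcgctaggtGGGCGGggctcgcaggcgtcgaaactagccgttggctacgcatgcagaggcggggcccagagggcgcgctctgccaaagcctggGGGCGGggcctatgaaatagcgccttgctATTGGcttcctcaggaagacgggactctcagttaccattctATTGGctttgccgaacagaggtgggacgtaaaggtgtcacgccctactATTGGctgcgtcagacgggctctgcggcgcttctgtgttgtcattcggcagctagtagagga
Dlat: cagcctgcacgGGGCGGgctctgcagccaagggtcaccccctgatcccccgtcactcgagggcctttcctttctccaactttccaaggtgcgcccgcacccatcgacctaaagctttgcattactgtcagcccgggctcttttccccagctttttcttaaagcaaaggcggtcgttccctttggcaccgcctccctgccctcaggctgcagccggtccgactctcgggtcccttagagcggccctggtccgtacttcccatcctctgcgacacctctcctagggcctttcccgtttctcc
Pdhx: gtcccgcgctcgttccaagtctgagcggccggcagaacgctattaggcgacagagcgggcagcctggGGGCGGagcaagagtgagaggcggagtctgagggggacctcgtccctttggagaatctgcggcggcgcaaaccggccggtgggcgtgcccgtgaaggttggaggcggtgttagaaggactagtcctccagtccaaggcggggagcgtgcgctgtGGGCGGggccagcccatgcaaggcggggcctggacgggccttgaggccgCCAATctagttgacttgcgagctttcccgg

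Next are the promoters of the 3 genes whose end peaks stood highest in the lists. They are chr1:165461010-165461309 (plus strand), chr4:40143015-40143314 (plus strand) and chr1:175625586-175625885 (minus strand).
Mpc2: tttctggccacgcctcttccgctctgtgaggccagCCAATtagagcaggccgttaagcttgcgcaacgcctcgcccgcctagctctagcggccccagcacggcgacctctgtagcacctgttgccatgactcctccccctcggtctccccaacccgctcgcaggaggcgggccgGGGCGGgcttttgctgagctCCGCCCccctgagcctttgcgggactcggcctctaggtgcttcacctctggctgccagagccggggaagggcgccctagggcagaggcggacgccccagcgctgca
Aco1: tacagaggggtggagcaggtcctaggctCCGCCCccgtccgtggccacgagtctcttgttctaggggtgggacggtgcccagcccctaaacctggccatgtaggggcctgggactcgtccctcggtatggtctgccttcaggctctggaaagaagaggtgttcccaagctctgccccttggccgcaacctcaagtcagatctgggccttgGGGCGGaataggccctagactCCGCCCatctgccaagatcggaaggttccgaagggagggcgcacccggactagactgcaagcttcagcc
Fh1: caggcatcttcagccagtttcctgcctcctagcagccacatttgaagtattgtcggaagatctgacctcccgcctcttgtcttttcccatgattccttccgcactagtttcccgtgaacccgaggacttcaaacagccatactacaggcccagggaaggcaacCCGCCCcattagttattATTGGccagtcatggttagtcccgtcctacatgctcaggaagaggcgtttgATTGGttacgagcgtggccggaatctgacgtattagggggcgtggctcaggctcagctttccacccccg

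The last promoters belong to the 2 genes whose calls at an end were uneven between libraries, a choice made after their calls were seen. They are chr6:95718797-95719096 (minus strand) and chr7:89632568-89632867 (plus strand).
Suclg2: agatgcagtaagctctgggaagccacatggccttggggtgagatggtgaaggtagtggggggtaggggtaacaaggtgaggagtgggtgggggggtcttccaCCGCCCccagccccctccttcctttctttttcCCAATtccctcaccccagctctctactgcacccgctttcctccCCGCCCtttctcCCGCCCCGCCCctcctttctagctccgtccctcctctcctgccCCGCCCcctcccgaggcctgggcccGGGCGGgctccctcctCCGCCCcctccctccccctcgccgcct
Me3: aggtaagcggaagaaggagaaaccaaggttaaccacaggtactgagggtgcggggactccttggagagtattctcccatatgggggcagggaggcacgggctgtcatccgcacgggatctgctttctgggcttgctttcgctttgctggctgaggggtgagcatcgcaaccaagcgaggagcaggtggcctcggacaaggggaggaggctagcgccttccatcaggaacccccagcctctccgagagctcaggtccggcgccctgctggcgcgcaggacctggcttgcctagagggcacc

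The lists held 25683 to 29765 peaks, with the most in PA 2, and read depth is unknown. Over all 4 lists, peaks that overlapped or touched were merged into 38853 regions. Hepatocyte marker genes were called at an end for 7 or 8 of 10 genes per library. In all 4 libraries, 4 of the 10 (40%) were called, namely Cps1, Apob, Ttr and Cyp2e1. That share lies near the 41.3% of all protein-coding genes called in all 4 libraries. Apoa1 was called in no library. Of markers of other cells, 0 to 2 of 6 Kupffer cell genes, 2 or 3 of 6 endothelial genes, 1 or 2 of 6 stellate cell genes, 0 or 1 of 5 bile duct genes and 0 of 6 lymphocyte genes were called per library. In bulk tissue an opening in few cells and a weak opening in many cannot be told apart. Each mouse library is 1 value, so with 2 against 2 libraries an exact permutation test cannot give a p below 0.333.

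Nearly all genes of the group were open at an end in every liver, whatever the genotype. Of the 30 genes, 27 (90%) were called at an end in all 4 libraries, against 41.3% of all protein-coding genes. Only 1 gene, Idh2, was called at an end in no library, against 48.3% of all genes. The remaining 2 were Suclg2, called in PA 2 alone, and Me3, called in WT 2 and PA 1. No gene of the group was called at an end in both PA livers but in no WT liver, a pattern that 0.661% of all genes had. None showed the opposite pattern either, which 0.476% of all genes had. The number of genes called at an end was 27 and 28 in the WT libraries and 28 and 28 in the PA libraries (exact permutation test, two-sided, p = 1, with 2 libraries a genotype). All libraries but WT 1 had the same count, so every split of the libraries gives a difference of the same size. The test therefore cannot tell the genotypes apart here, and its p is no sign that they are alike.

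Idh2, which encodes the mitochondrial NADP-dependent isocitrate dehydrogenase, was called at its listed start and not at its annotated ends. Its span in the gene table, chr7:80094845-80118608, reaches 3258 bp past the transcription start that RefSeq lists at 80115350. A region over that start, chr7:80115189-80115595, was called in all 4 libraries, with peak centres 39 to 46 bp upstream of it. Transcription starts are listed for 27 of the 30 genes and not for Pdp1, Idh3a and Me2. At a listed start, 25 of the 27 were called in all 4 libraries, against 44.2% of the 17274 protein-coding genes with a listed start. Counting a call at an end or at a listed start, 28 of the 30 genes were called in every library, and Suclg2 and Me3 were not. This joined rule was chosen after the data were seen. The share of all protein-coding genes that meet it is not given, so the 28 has no background of its own.

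How far down its list a peak stands is given below as a list place, where 0% is the first line and 100% the last. The sources used here do not say what the lines are ordered by, and lists differ in length, so places describe a peak within its own list and are not compared between genotypes. Values are given for replicates 1 and 2 in that order. Across the group the median place of a gene's highest end peak was 10.7% and 8% in the WT lists and 10.1% and 9.06% in the PA lists. Over all genes called at an end in the same library it was 28.2% and 25.3%, and 23.1% and 24.8%. In each of the 4 lists the group's median thus stood nearer the first line than that of all genes with such a call. Per list, 46.4% to 57.1% of the group's genes called at an end had a peak in the first 10%. Of all genes called at an end, 21.8% to 24.4% did. Of the 27 genes called in every library, 13 had a peak in the first 10% of all 4 lists, and 24 had one in the first 50%. The 3 others were Pdk3, Idh3b and Dlst. The shares of all genes that pass these cuts in all 4 lists are not given, so the counts 13 and 24 describe the group and do not set it apart.

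**Figure D1:**
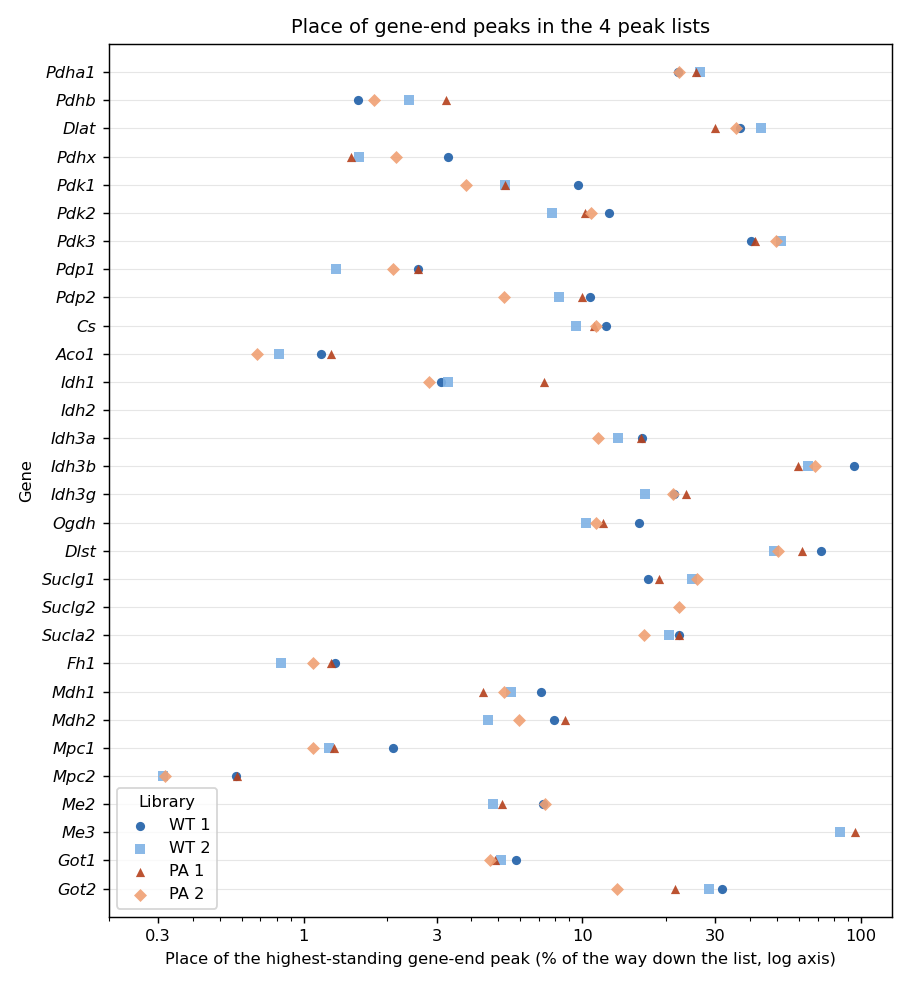
Place of each gene's highest-standing end peak in its own list (x axis, percent of the way down, log axis) for the 30 genes (y axis), with 1 point per library. Mpc2, Aco1 and Fh1 lie farthest left, Idh3b and Me3 farthest right, Suclg2 has 1 point, Me3 has 2 and Idh2 none.

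Within the pyruvate dehydrogenase complex, 2 of the genes stood near the top of the lists and 2 lower. Pdhb, the beta subunit of the E1 enzyme that decarboxylates pyruvate, had list places of 1.57% and 2.39% in WT and 3.25% and 1.79% in PA. Pdhx, the protein that tethers the E3 enzyme to the core, stood at 3.31% and 1.58% in WT and 1.48% and 2.14% in PA. Pdha1, the X-linked alpha subunit of E1, stood at 22% and 26.5% in WT and 25.6% and 22.2% in PA. Its region, chrX:160137853-160138662, was called in every library, but the WT 2 peak was centred 377 bp downstream of the start and the other 3 peaks 18 to 33 bp upstream of it. The WT 2 peak therefore covered 0 bases of the Pdha1 window printed above, against 267 in WT 1, 280 in PA 1 and 282 in PA 2. It overlapped the edge of the WT 1 peak and neither PA peak. The call of this region in every library thus rests on joining peaks that do not all overlap.

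Dlat, the E2 acetyltransferase that forms the core of the complex, had a pair of neighbouring regions at its start. The one over the start, chr9:50659322-50659853, was called in every library, at 48% and 43.7% in WT and 30.1% and 41.2% in PA. Its PA 2 peak lay wholly downstream of the start. That peak covered 0 bases of the Dlat window printed above, against 122 in WT 1, 123 in WT 2 and 123 in PA 1. The other region lay 652 bp upstream, at chr9:50660432-50660868, and was called in WT 1, WT 2 and PA 2 at 37%, 48.6% and 35.6%. PA 1 had no peak there, so the PA libraries differed from each other and the WT libraries did not.

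The regulators of the complex were called at an end in all 4 libraries without exception. The kinases differed in list place. Pdk1 stood at 9.68% and 5.29% in WT and 5.28% and 3.82% in PA, and Pdk2 at 12.5% and 7.77%, and 10.2% and 10.8%. Pdk3 stood lower, at 40.4% and 51.6% in WT and 41.8% and 49.7% in PA. Of the phosphatases that reactivate the complex, Pdp1 stood at 1.31% to 2.58% over the 4 lists and Pdp2 at 5.22% to 10.7%.

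The pyruvate carrier genes were among the highest of the group. Mpc2 stood at 0.571% and 0.312% in WT and 0.576% and 0.319% in PA, the highest median place of the 27 genes called in all 4 lists. Its peak was centred 167 bp upstream of the start in each library. Mpc1 stood at 2.1% and 1.23% in WT and 1.29% and 1.08% in PA, with its peak centred 9 to 13 bp upstream of the start. Mpc1 also held a region inside the gene, chr17:8290711-8291112, in all 4 libraries.

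The entry steps of the cycle were called in every library. Cs, citrate synthase, stood at 12.2% and 9.51% in WT and 11% and 11.2% in PA. Aco1, the cytosolic aconitase that doubles as an iron-responsive RNA-binding protein, stood at 1.15% and 0.813% in WT and 1.25% and 0.679% in PA. The Aco1 gene also held a region at chr4:40181669-40182139 called in all 4 libraries. Among the isocitrate dehydrogenases, the catalytic subunit of the NAD-dependent enzyme, Idh3a, stood at 11.4% to 16.4% and the regulatory subunit gene Idh3g at 16.8% to 23.6%. Idh3b, the other regulatory subunit of that enzyme, stood at 94.6% and 64.9% in WT and 59.6% and 68.3% in PA. Its median place, 66.6%, was the lowest-standing of the genes called at an end in every list, although Dlst stood lower in PA 1.

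Idh1, the cytosolic NADP-dependent isocitrate dehydrogenase, had starts at 2 places and peaks at both. The region at the outer start was called in every library, at 3.11% and 3.31% in WT and 7.28% and 2.82% in PA. At the inner start, at 65179142, a region (chr1:65179009-65179432) was called in WT 2, PA 1 and PA 2 at 5.34%, 5.61% and 3.08%, and not in WT 1. A further region, chr1:65178014-65178626, lay beside it and was called in all 4 libraries, at 2.36% and 4.45% in WT and 5.21% and 3.05% in PA. WT 1 thus lacked 1 peak of a closely spaced pair.

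From 2-oxoglutarate to fumarate the calls were as even, apart from Suclg2. Ogdh, the E1 subunit of the 2-oxoglutarate dehydrogenase complex, stood at 16% and 10.3% in WT and 11.9% and 11.2% in PA. Its peak was centred 3 bp upstream of the outermost start in WT 1 and PA 2, and 379 and 416 bp downstream of it in WT 2 and PA 1, so the placing did not follow genotype. The PA 1 peak overlapped neither the WT 1 nor the PA 2 peak, and the WT 2 peak joined them into a region. RefSeq lists 6 starts for Ogdh. Dlst, the E2 subunit of that complex, stood at 71.8% and 48.7% in WT and 61.8% and 50.6% in PA. Fh1, fumarase, had a region over its start (chr1:175625444-175625890) at 1.3% and 0.829% in WT and 1.25% and 1.08% in PA. A further Fh1 region lay 826 bp inside the far end of the gene and another deeper inside it, both called in all 4 libraries.

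Succinyl-CoA, where propionate carbon enters, is converted to succinate by a ligase with a shared alpha subunit, Suclg1, and either an ATP-forming beta subunit, Sucla2, or a GTP-forming one, Suclg2. Suclg1 was called at its start in every library, at 17.3% and 24.8% in WT and 18.9% and 25.8% in PA. Sucla2 was too, at 22.2% and 20.5% in WT and 22.2% and 16.7% in PA. Suclg2 was called at its start only in PA 2, at 22.3%, by a peak centred 10 bp upstream of the listed start. WT 1, WT 2 and PA 1 had no peak there. A call in 1 of 2 PA libraries does not separate the genotypes. Without PA 1, PA 2 alone stands for its genotype, and Suclg2 then counts as called in PA and not in WT.

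Suclg2 also had the most regions inside a gene, 6. Of these, 1 (chr6:95511702-95512142) was called in all 4 libraries, 2 in 3 libraries and 3 in 2 libraries. WT 1 had 3 of them, WT 2 and PA 1 had 4 each, and PA 2 had 5. The list places ran from 50.3% to 92.2%, so all stood in the second part of their lists. The next most regions inside a gene were 2, at Aco1, Idh1 and Suclg1.

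**Figure D2:**
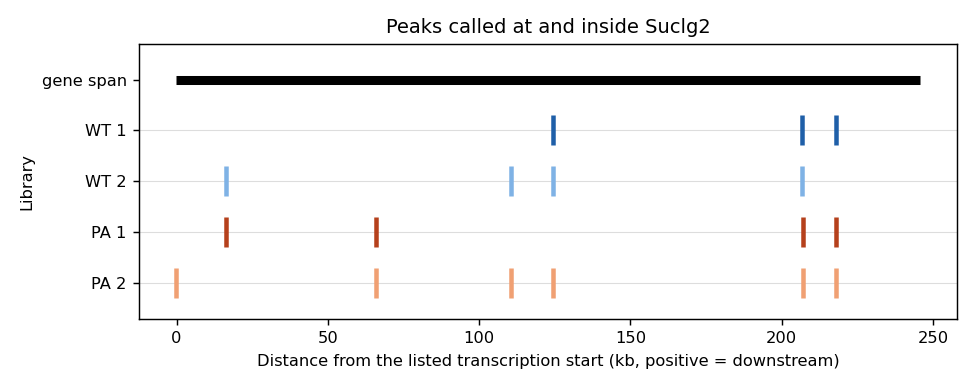
Peaks called at and inside Suclg2 in each library, as marks at the peak centres along the distance from the listed transcription start (x axis, kb, positive downstream), below the gene span. PA 2 alone has a mark at the start, and only the mark near 207 kb is present in all 4 rows.

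The malate, aspartate and pyruvate side steps were called in all libraries except at Me3. Mdh2, the mitochondrial malate dehydrogenase, stood at 7.92% and 4.6% in WT and 8.71% and 5.93% in PA, and Mdh1, its cytosolic counterpart, at 4.39% to 7.09%. Got1, the cytosolic aspartate aminotransferase, stood at 4.68% to 5.79%. Got2, the mitochondrial one, stood at 31.8% and 28.6% in WT and 21.5% and 13.3% in PA. Me2, a mitochondrial malic enzyme, stood at 4.78% to 7.36%. Me3, the NADP-dependent mitochondrial malic enzyme, was called in WT 2 at 84.2% and in PA 1 at 95.2% and not in WT 1 or PA 2. Each genotype thus had 1 library with the Me3 call and 1 without.

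Peaks sat close to the start and often at nearly the same bases in all livers. For 25 genes with a peak within 1 kb of the outermost listed start in all 4 libraries, the peak centre nearest the start was compared. Taking the nearest peak in that window favours a small distance. The same counts over all genes are not given, so these values describe the group and do not set it apart. The median over libraries lay within 200 bp of the start for 24 of them and upstream of it for 19. The exception was Got2, whose peaks were centred 500 to 603 bp downstream. The centres of a gene ranged over 0 bp (Mpc2) to 419 bp (Ogdh), with a median range of 50 bp. At 13 genes all centres lay within 50 bp of each other, among them Pdk1 (1 bp), Got1 (2 bp), Mpc1 (4 bp), Mdh2 (5 bp), Idh3g (5 bp) and Idh2 (7 bp). At 8 genes they ranged over more than 100 bp. They were Pdha1, Dlat, Pdp2, Idh3b, Ogdh, Dlst, Mdh1 and Got2.

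**Figure D3:**
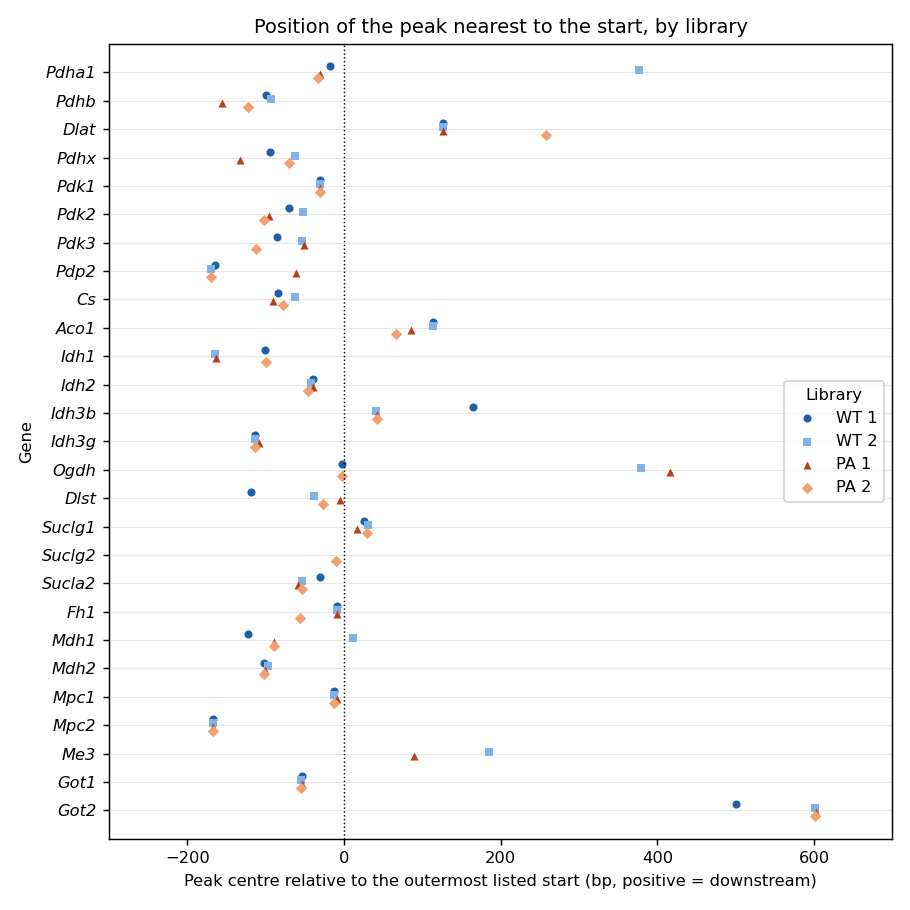
Centre of the peak nearest to the outermost listed start (x axis, bp, positive downstream) for the 27 genes with a listed start (y axis), with 1 point per library. Most points lie within 200 bp of the dotted line at the start. The WT 2 point of Pdha1, the PA 2 point of Dlat, the WT 2 and PA 1 points of Ogdh and all points of Got2 lie farther downstream.

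Several of these promoters are shared with a neighbour, and a peak there belongs to either gene. Another protein-coding gene starts within 1 kb on the opposite strand at 6 of the 27 genes. The pairs, with the distance between starts, were Idh3g and Ssr4 (126 bp), Pdhx and Apip (162 bp), Idh1 and Pikfyve (206 bp), Mdh2 and Styxl1 (264 bp), Mdh1 and Wdpcp (347 bp) and Mpc2 and Dcaf6 (797 bp). All 6 were called at an end in every library. Which gene of a pair the open chromatin serves cannot be told apart from peak positions.

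The promoters of the group were rich in CG dinucleotides. The 27 windows of 300 bases held 13 to 39 CG, with a median of 23, against a median of 14 (range 0 to 65) over the windows of 17274 protein-coding genes, 1 window a gene. All 27 held at least 10 CG, as did 57.9% of all windows. The GC box was in 19 of the 27 windows (70.4%) against 46.9% of all, and the CCAAT box in 16 (59.3%) against 39.6%. Matches to the ETS letters were in 4 (14.8%, Dlst, Idh3b, Idh3g and Mpc1) against 12.1%, and to NRF1 in 3 (11.1%, Pdha1, Idh3g and Sucla2) against 9.12%. The E-box was in 2 (7.41%, Pdk2 and Pdp2) against 8.01%, CREB letters in 2 (7.41%, Mdh2 and Ogdh) against 2.36%, and YY1 letters in 1 (3.7%, Idh3g) against 1.92%. The ERR letters were in 0 of 27 and in 0.336% of all windows. In the printed windows, Pdhb held 3 CCAAT boxes and 2 GC boxes, Aco1 3 GC boxes, and Suclg2 had 7 matches to the GC box, some of them overlapping. Me3 held none of the letters searched for. The unevenly called Suclg2 and Me3 had 13 and 15 CG, and Aco1 and Fh1, near the top of every list, had 14 each.

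**Figure D4:**
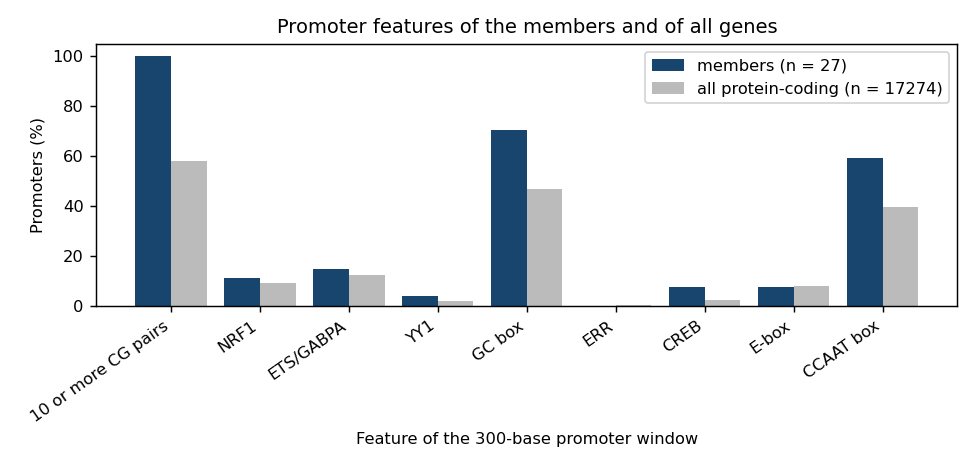
Share of 300-base promoter windows (y axis, percent) that hold at least 10 CG pairs or a match to each set of motif letters (x axis), for the 27 genes of the group and for 17274 protein-coding genes. The GC box is in 70.4% against 46.9% and the CCAAT box in 59.3% against 39.6%.

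Away from the gene ends the calls were less even. Within 50 kb of the 30 genes lay 143 regions. All 4 libraries shared 86 of them (60.1%), against 45.3% of all regions. Of the 31 regions at an end, 28 (90.3%) were called in all 4 libraries, against 73.6% of regions at an end of any protein-coding gene. Of the 24 regions inside the genes, 7 (29.2%) were, against 34.9% of regions inside any gene. Of the 88 regions in the surrounding 50 kb, 51 (58%) were, against 49.5% of regions placed in that way around any protein-coding gene. Surrounding regions can lie at or inside other genes, and for 73 of the 143 the nearest protein-coding gene end was that of one of the 30. Only gene ends within 50 kb were counted, so regions deep inside Suclg2 are not among the 73.

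Regions inside the genes were found at 16 of the 30, and 7 genes had one called in all 4 libraries (23.3%, against 15.7% of all protein-coding genes). They were Idh1, Idh2, Fh1, Mpc1, Aco1, Suclg1 and Suclg2. That of Idh2 is the one over its start. Of the 24 regions, 13 were called in each of WT 1, WT 2 and PA 1 and 19 in PA 2 (exact permutation test, two-sided, p = 1). As all libraries but PA 2 had the same count, every split gives a difference of the same size, and this test cannot decide. PA 2, which has the longest list, also held 4 of the 7 regions called in a single library, at Pdhx, Pdk1, Sucla2 and Mdh1, with list places from 87.8% to 98.4%. How much the length of the list has to do with this was not tested. In the surrounding 50 kb, 70 and 62 regions were called in the WT libraries and 66 and 73 in the PA libraries (p = 0.667, same exact test).

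**Figure D5:**
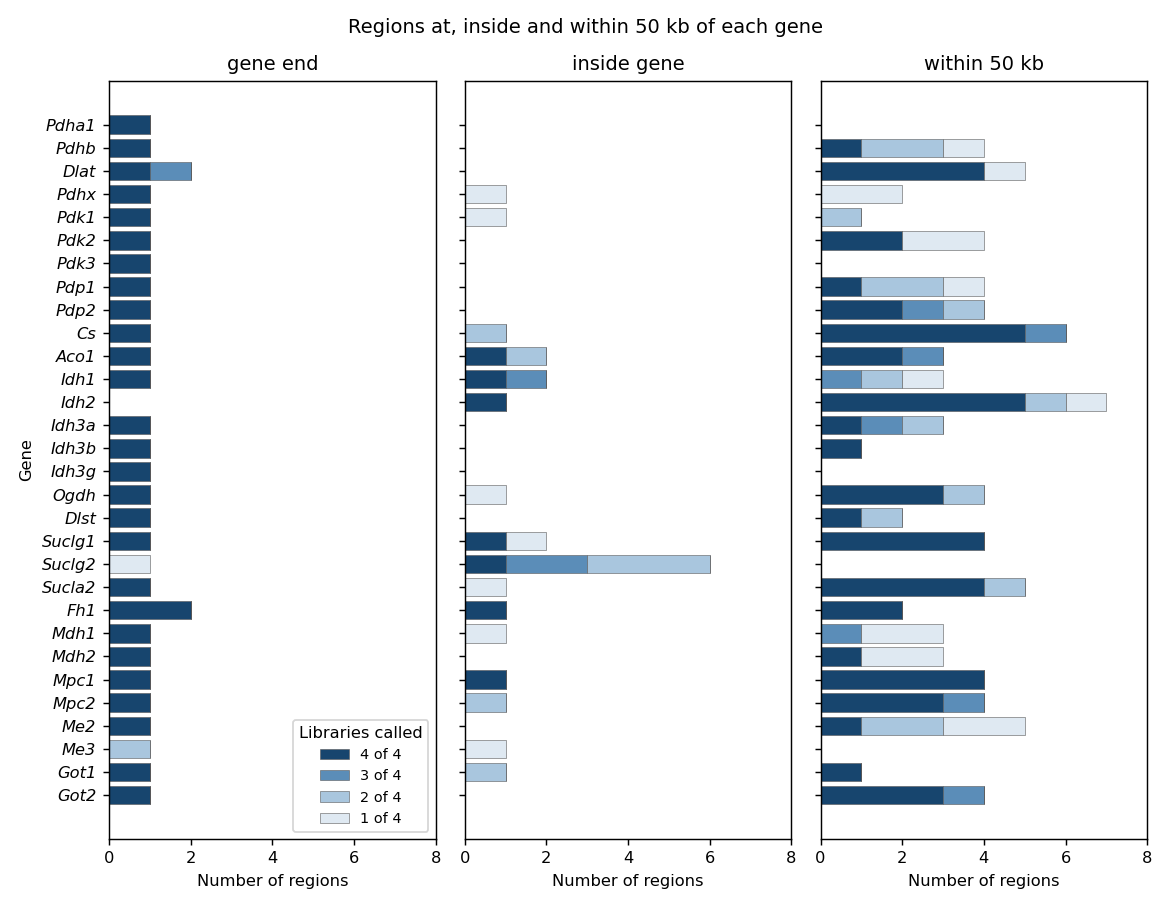
Number of regions (x axis) at an end of each gene, inside it and within 50 kb of it (3 panels), for the 30 genes (y axis), shaded by the number of libraries in which a region was called. At the ends nearly all bars are of the darkest shade, and Suclg2 has the longest bar inside a gene, with 6 regions.

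Regions called in both libraries of one genotype and neither of the other were few, and their peaks had list places from 61.6% to 93.3%. PA-only regions numbered 4 of 143 (2.8%), against 3.38% of all regions, and WT-only regions 2 (1.4%), against 1.98%. A PA-only region lay within 50 kb of 4 of the 30 genes (13.3%, against 9.73% of all genes) and a WT-only region within 50 kb of 2 (6.67%, against 6.58%). These shares lie near those of all regions and genes. Of the 6, 0 had both peaks in the first 50% of their lists.

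A WT-only region lay inside Cs, at chr10:128351233-128351717, with list places of 85.6% and 82.4%, 13385 bp from the nearest PA peak. Suclg2 held a PA-only region, at chr6:95652767-95653174, at 92.2% and 67%, with the nearest WT peak 44253 bp away. Exons and introns are not told apart here, since the gene table lists neither. A PA-only region lay 5365 bp upstream of Pdk1, at chr2:71867429-71867850, at 70.3% and 69.7%, and 5144 bp from a WT peak. A further one lay 6775 bp past the far end of Ogdh, at chr11:6365869-6366306, at 84.1% and 91.1%.

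The remaining restricted regions were a WT-only one at chr14:8124041-8124462 and a PA-only one at chr14:8132744-8133183, 41529 and 32808 bp from Pdhb. They lay 8282 bp apart. Both lay inside the neighbouring gene Pxk, 25861 and 31934 bp from its nearer end. With the lists held to equal length, 2 PA-only and 2 WT-only regions were counted. With 1 library left out, its genotype has to be called in a single library only, and the count of restricted regions was 14 to 16. The lowest was without PA 2 (9 PA-only and 5 WT-only) and the highest without WT 2 (6 and 10) and without PA 1 (13 and 3). Without WT 1 it was 15 (11 and 4).

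Other genes of the same pathways, taken from a list of textbook members, were called much like the 30. Of these 37 genes, 30 (81.1%) were called at an end in all 4 libraries, against 41.3% of all protein-coding genes. A call in both libraries of a genotype and in no library of the other was found at 0 of the 37. Over all genes, 0.661% had such a call in PA and 0.476% in WT, so 0 among so few genes lies near those shares. The 37 include Dld, the E3 subunit shared by the 2-oxoacid dehydrogenases, and the 4 succinate dehydrogenase subunit genes Sdha, Sdhb, Sdhc and Sdhd. Pdk4, a kinase of the complex induced by fasting, stood at 0.411% and 2.2% in WT and 0.884% and 1.88% in PA. Mmut, the mutase that delivers propionate carbon to succinyl-CoA, stood at 0.419% and 0.844% in WT and 1.63% and 0.991% in PA.

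The 7 genes of that list without a call at an end in all libraries fell into 3 kinds. Ldha, D2hgdh and Pcca were called at an end in no library but at a listed start in all 4. The called start lay 3530 bp inside the annotated span for Ldha and 2045 bp inside it for D2hgdh. Pcca, the gene altered in the PA mice, has a listed start at its annotated end, which was called in no library, and another 49963 bp inside the gene, which was called in all 4. Acss1, a mitochondrial acetyl-CoA synthetase, and Ogdhl, a relative of Ogdh, were called in no library at either. Mdh1b was called in WT 2, PA 1 and PA 2 at 71.1%, 77.2% and 65.4%, and Slc25a10, the dicarboxylate carrier, in PA 1 at 67.8%.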

How the data were processed

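Peaks of ATAC-seq libraries from 4 mouse livers, 2 per genotype, were analysed. For each library the authors deposited 1 list of peak positions (chromosome, start, end) with no score, and nearly all peaks were 400 bp long. The submitters' processing notes name HOMER 4.10, bedtools 2.31.0, Bowtie2 2.5.1, cutadapt 3.5, SAMtools 1.17 and R 4.1.2, with the build GRCm38 (mm10). Which tool called peaks, at what threshold, with what read filters and whether read ends were shifted for Tn5 is not given in the sources used. A list says where a caller's threshold was passed and not how open a site was, and a deeper library can pass it at more sites. Depth is unknown, so no interval is given.

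Group and replicate come from the sample titles. Overlapping or touching peaks were joined into regions, and a region counted as called in a library with at least 1 bp of a peak. A region can thus join peaks that do not all overlap each other. Gene spans come from the RefSeq table of GRCm38.p6, which lists no strand. Starts, strand and sequences come from the RefSeq promoter table, which is not complete. The outermost start of a gene was used for peak centres and motifs. Whether the replicates of a genotype shared a litter or day is not given, so a p-value measures the spread between these libraries. Genotypes were compared by exact permutation of the libraries where there was 1 value per library, and otherwise by counts without a test. Alternatives were window, list length, overlap, merging distance, and leaving out each library. Places in the list were used within each list. Every member is accounted for. Values in each library were given, by rule, for genes with uneven calls, a genotype-restricted region nearby, extreme list places or the most regions inside. Printed promoters were those of the complex and of the 3 highest genes, with 2 added later. One gene of the list of other pathway genes is not reported here. Members and lists were chosen with earlier results of these data known. Python 3.11.15, pandas 2.3.3, NumPy 2.4.6, SciPy 1.17.1 and Matplotlib 3.10.9 were used, and merging and patterns were tested on simulated data.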

Additional observations from a re-analysis of the deposited data

How the results depend on the processing

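The 27 genes called at an end in all 4 libraries were 27 as well with windows of 500 bp and 2 kb, with lists of equal length, with at least 50% of a peak in the window, and without any one library (range 27 to 27). In the first 50% of each list they were 24. Adding listed starts, an alternative chosen after seeing the data, gave 28. Genes with an end call in both libraries of 1 genotype and in no library of the other numbered 0 under each setting tried for them except when a library was left out, where the range was 0 to 1. The 1 is Suclg2 without PA 1, where PA 2 is the remaining PA library. The difference in genes called per library, 0.5 more in PA, was 0 to 1 when a library was left out and 0.5 to 1 under the other settings. With the window of 500 bp it was 1, with 27 and 27 genes in WT and 28 and 28 in PA. The exact permutation test then gave p = 0.333, the smallest that 2 against 2 libraries allow. The added gene was Me3 in PA 1 and Suclg2 in PA 2, and the Me3 peak of WT 2 fell outside that window. With that window 0 genes were called in both libraries of 1 genotype and in no library of the other. Genotype-restricted regions within 50 kb, 6 in all, numbered 0 in the first 50% of each list and 14 to 16 without 1 library. They numbered 3 where the nearest gene end within 50 kb had to be that of one of the 30. That condition drops the PA-only region inside Suclg2, which lies 65684 bp from the nearer end of that gene. Shorter lists hold fewer lines, and the nearest-gene condition keeps fewer regions, by construction. Regions called in all 4 libraries, 86 in all, numbered 54 in the first 50% of each list and 83 to 91 under the other settings. Depth is unknown, so a site without a peak may lie just under the caller's threshold. No paired analysis was possible because the calls come from no fitted model and nothing ties replicate numbers across genotypes.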
